A study of Mus musculus with 18 samples.

Results

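Alveolar type II cells from mice that carry the Cebpa deletion were compared at 24 h and 2 h of hyperoxia, on 3 arrays at each time. The members were chosen by the array titles (24 h replicates 1, 2 and 4 and 2 h replicates 2, 3 and 4), which gave 6 of the 18 arrays of the series. The series is an expression study by array of isolated type II cells from 7 to 8 week old mice at 0, 2 and 24 h, and each of its 6 groups holds 3 arrays. The Cebpa-deleted mice are labelled CCSP/rtTA/CEBPa(flx/flx), a genotype in which the Clara cell secretory protein promoter drives the reverse tetracycline transactivator and both Cebpa alleles are floxed. The design text places the deletion in Clara cells from early gestation and in type II cells from near term. The Cre transgene that cuts the floxed alleles is not named in that label. The controls are CEBP/a(flx/flx) littermates without rtTA or without Cre, so they carry the same floxed alleles. The sample descriptions name air for all arrays, and the exposure to hyperoxia at 2 and 24 h comes from the design text alone. The labels do not tie arrays to animals, so p-values measure the spread between arrays, which may be technical. That spread was estimated over all 18 arrays of the 6 groups, not the 6 compared arrays alone.

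Type II cells make and store surfactant, the lipid and protein film that keeps alveoli open, and they are the progenitors of the flat type I cells that carry gas exchange. C/EBPα, the product of Cebpa, is a leucine zipper transcription factor that in type II cells drives genes of differentiation, lipid synthesis and host defence. Breathing nearly pure oxygen loads these cells with reactive oxygen species, and their known defences include antioxidant enzymes, surfactant and repair programmes. Values are log2 signals of single gene features, and a change is the mean log2 signal at 24 h minus that at 2 h. In bulk cells a lower signal from fewer cells of a type and from less RNA in each cell cannot be told apart.

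From 2 to 24 h, limma called 6254 of 19938 genes in the Cebpa-deleted cells at a Benjamini-Hochberg adjusted p below 0.05, a share of 31.4%. Of these, 2355 genes rose (11.8%) and 3899 fell (19.6%). A fit to the arrays of the compared groups alone called 1830 genes. The arrays of the times did not overlap for 15.5% of genes, higher at 24 h, and for 20.3%, lower. Changes of at least 2-fold were few, with 26 called genes higher (0.130%) and 105 lower (0.527%). Genes of host defence were among the largest falls, with the chitinase-like Chil1, the acute phase proteins Itih4, Lcn2 and Lbp, and the cytokines Il33 and Il1a. Markers of type II cells, chaperones of the endoplasmic reticulum and class II antigen presentation genes fell as well. The largest rise among the named genes was in Lsmem1, a gene of a small membrane protein that also rose in the controls.

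The spread of values within an array moved with the time point. The interquartile range over all genes in Cebpa-deleted cells was 2.55, 2.36 and 2.16 at 2 h (replicates 2, 3 and 4) and 1.89, 1.82 and 2.13 at 24 h (replicates 1, 2 and 4), with no overlap. In the controls it was 2.25 ± 0.13 at 2 h and 2.47 ± 0.04 at 24 h (SD, n = 3 each). When genes were ranked by mean level over 18 arrays, the median change in Cebpa-deleted cells was 0.17 in the lowest 20% of genes and −0.30 in the highest 20%. Of the lowest 20% of genes 17.5% rose and 0.351% fell, and of the highest 20%, 3.03% rose and 51.3% fell. Cyclic loess normalization, which removes differences that follow the level, gave 3551 calls (17.8%), with 1642 higher (8.24%) and 1909 lower (9.57%). Of these calls 2546 were also made on the values as deposited. With the array range as a covariate, 115 genes were called. The range and the time point cannot be told apart in these groups, so calls after cyclic loess are given with the gene groups. Replicate 2 at 2 h stood apart from the other arrays of its group, with the widest range, the highest Cebpa signal and a mean signal over 22 endothelial markers of 8.48 against 9.33 and 9.44. Without it 3111 genes were called, against 2922 without 24 h replicate 2 and 3538 without 24 h replicate 1. Of 24 lists with 1 to 3 rises, 16 had 0 rises by limma without at least 1 of the 6 arrays.

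**Figure D1:**
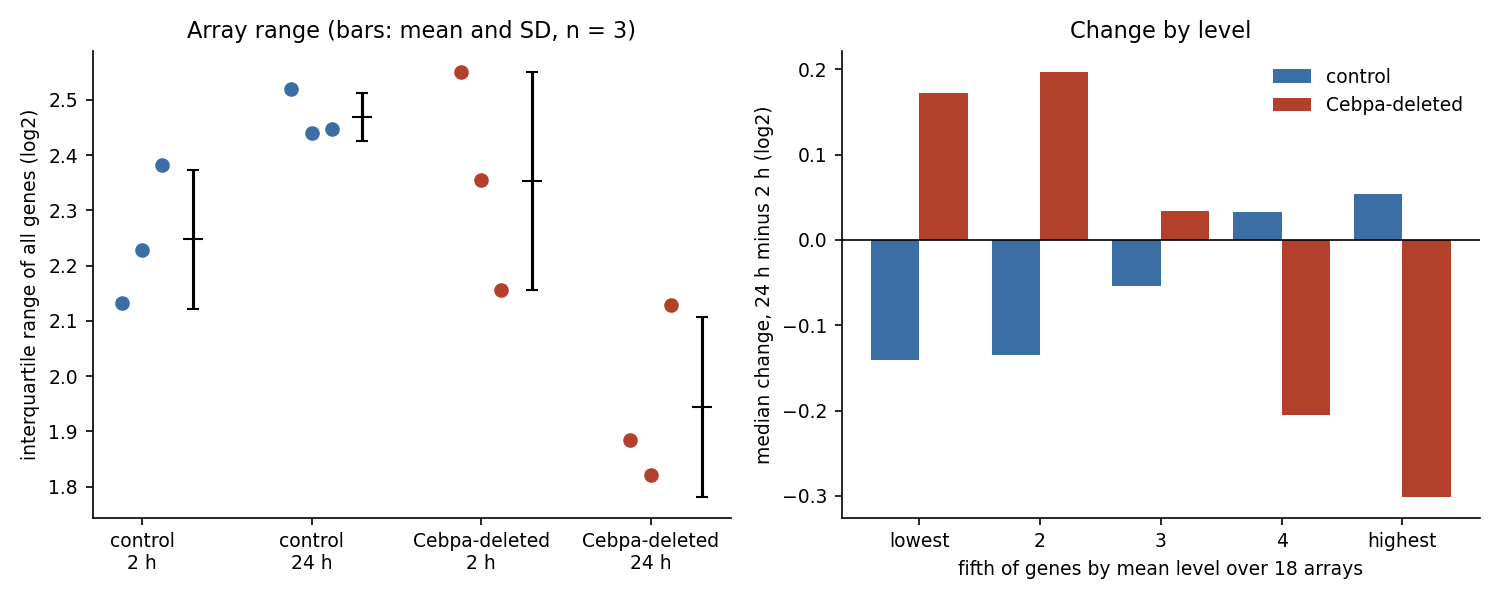
Left, interquartile range of log2 signals over all genes on each array at 2 and 24 h, with the mean and SD of each group (n = 3). Right, median change from 2 to 24 h (log2) in each of 5 equal bins of genes by mean level. The 3 Cebpa-deleted 24 h arrays lie between 1.82 and 2.13, below the 3 arrays at 2 h, and in these cells the median change goes from 0.17 in the lowest bin to −0.30 in the highest.

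The targeted gene was lower in all 6 Cebpa-deleted arrays than in any control array at these times. Cebpa signal in Cebpa-deleted cells was 9.98, 8.96 and 9.31 at 2 h and 8.66, 8.26 and 8.38 at 24 h. In the controls it was 10.43, 10.46 and 10.68 at 2 h and 10.45, 10.12 and 10.22 at 24 h. The Cebpa-deleted arrays at 24 h lay below all those at 2 h, and the fall was −0.98 ± 0.18 (SE, adjusted p = 0.00093). The control change was −0.25 (adjusted p = 0.362), and the difference between the changes was −0.73 (adjusted p = 0.0368), or −0.36 (adjusted p = 0.354) after cyclic loess. The labels do not say which part of the gene the feature covers, so it is not known whether it lies in the deleted part. Of the 6 measured C/EBP family genes, Cebpa fell and Cebpe, a factor of granulocyte maturation, rose by 0.37. The close relatives Cebpb and Cebpd, which answer to inflammation, changed by −0.18 and −0.03 and did not pass the test. Cebpe was not called after cyclic loess, where Ddit3, the stress-induced family member, rose by 0.39.

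Among the genes of host defence that fell, 2 promoters are shown because they hold the letters TTGCNNAA, a core form of the C/EBP binding site. The letters were searched on both strands of the window from 250 bases before to 50 after the gene start in RefSeq, build GRCm38.p6, and capitals mark the match. Both sequences are written 5′ to 3′ on the strand of the gene.
Lcn2, chr2:32387690-32387989, minus strand: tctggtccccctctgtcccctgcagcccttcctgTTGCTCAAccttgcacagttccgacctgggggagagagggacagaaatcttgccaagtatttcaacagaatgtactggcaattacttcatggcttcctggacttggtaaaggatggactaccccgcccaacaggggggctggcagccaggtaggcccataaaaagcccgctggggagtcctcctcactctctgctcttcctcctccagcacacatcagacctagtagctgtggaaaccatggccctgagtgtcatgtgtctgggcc
Il33, chr19:29945540-29945839, plus strand: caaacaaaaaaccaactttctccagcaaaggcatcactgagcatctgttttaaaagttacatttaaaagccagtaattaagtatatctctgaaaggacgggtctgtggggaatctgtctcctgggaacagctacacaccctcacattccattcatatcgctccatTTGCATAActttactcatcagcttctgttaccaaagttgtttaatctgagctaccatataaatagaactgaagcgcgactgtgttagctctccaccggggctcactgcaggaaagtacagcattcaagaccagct
The match begins 216 bases before the start of Lcn2 and 85 bases before that of Il33. Of the 30 measured acute phase and host defence genes, 25 had a window and 12 of those held a match (48.0%), against 11.3% of all measured genes with a window, 10.7% of those that fell and 13.4% of those that rose. Of the 12 genes with a match, Lcn2 fell, Slpi, Saa3 and Saa2 rose and the other 8 did not pass the test. Il33 is listed with the type II cell markers instead, of which 18 had a window and 4 of those held a match (22.2%). A match of letters is a description and not a binding site.

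Of the 30 measured acute phase and host defence genes, 9 fell (30%) and 4 rose (13.3%), against 19.6% and 11.8% of all genes. The upper 40% of genes by mean level, where 35% of the lower bin and 51.3% of the highest bin fell, held 22 of the 30. After cyclic loess 8 were lower and 2 higher, and without 2 h replicate 2 limma called 7 lower and 0 higher, against 10 lower and 5 higher at an unadjusted p below 0.05 on all arrays. The rises numbered 0 without 24 h replicate 1, 1 without 24 h replicate 2 and 2 without 2 h replicate 3. Chil1, a chitinase-like protein without enzyme activity, had signals of 12.45, 11.11 and 10.35 at 2 h and 9.41, 8.55 and 9.25 at 24 h. All 24 h arrays lay below those at 2 h, and the fall was −2.23 ± 0.43 (SE, adjusted p = 0.00147). Chia1, the acidic chitinase that cleaves chitin in the airway, went from 10.66, 10.13 and 10.35 to 8.55, 8.45 and 9.15, a fall of −1.66 ± 0.21 (adjusted p = 0.000113). Chil3, a chitinase-like protein listed here with the macrophage markers, went from 9.41, 10.73 and 10.41 to 7.97, 8.29 and 9.24, a fall of −1.68 ± 0.39 (adjusted p = 0.00432). In the controls these changes were −0.36 for Chil1, −0.61 for Chia1 and −0.55 for Chil3, and none of them passed the test. The differences between the changes were −1.87 for Chil1 (adjusted p = 0.0311) and −1.05 for Chia1 (adjusted p = 0.0176), neither called after cyclic loess (adjusted p = 0.122 and 0.107), and −1.14 for Chil3, which did not pass the test (adjusted p = 0.111).

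Lcn2, a protein that binds bacterial iron carriers, had signals of 11.38, 10.64 and 10.50 at 2 h and 9.65, 8.77 and 9.81 at 24 h. The times did not overlap, and the fall was −1.42 ± 0.22 (SE, adjusted p = 0.000409). In the controls Lcn2 stayed between 11.55 and 12.01 on all 6 arrays. The difference between the changes was −1.56 (adjusted p = 0.00537), and it passed the test after cyclic loess as well (−1.24, adjusted p = 0.019). Itih4, an acute phase protease inhibitor chain, went from 10.67, 9.56 and 9.21 to 7.92, 7.48 and 8.65, a fall of −1.79 ± 0.32. Lbp, which presents lipopolysaccharide to its receptor, fell by 1.31 on the log2 scale and Osmr, a receptor chain for oncostatin M, fell by 0.80. Lrg1, a leucine-rich acute phase glycoprotein, passed the test at −1.48, although its 24 h value of 9.0 on replicate 4 lay above the 8.69 of replicate 4 at 2 h. The members that rose changed less, with Orm1 at 0.46, Slpi at 0.45, Saa3 at 0.43 and Saa2 at 0.26, and of these Slpi alone was called after cyclic loess.

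Il33, an alarmin of the interleukin 1 family that type II cells hold in the nucleus, had signals of 11.17, 10.25 and 10.14 at 2 h and 8.57, 8.46 and 9.16 at 24 h. The change was −1.79 ± 0.23 (SE, adjusted p = 0.000159). The controls fell too, from 11.17, 11.44 and 11.93 to 10.25, 10.15 and 9.76, and the difference of −0.33 between the changes did not pass the test (adjusted p = 0.443). Il1a, the cell-bound alarmin of the same family, went from 8.28, 8.72 and 8.14 to 6.63, 6.98 and 6.92, a fall of −1.54 ± 0.31 (SE, adjusted p = 0.00193). Its change in the controls was −0.22, and the difference of −1.31 (adjusted p = 0.0333) was not called after cyclic loess (adjusted p = 0.116). Of the 15 measured interleukin 1 family genes, 2 fell and 2 rose (13.3% each, against 19.6% and 11.8% of all genes). The rises were small, with Il18bp, the decoy of interleukin 18, at 0.42 and Il1f5 at 0.32. After cyclic loess 2 were lower and 1 higher.

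Among 31 cytokines, chemokines and regulators of NF-kB signalling, 9 fell (29%) and 2 rose (6.45%), against 19.6% and 11.8% of all genes. The upper 40% by mean level held 21 of the 31, and after cyclic loess 3 were lower and 3 higher. The falls numbered 4 without 2 h replicate 3 or 24 h replicate 2 and 5 without 24 h replicate 1. Il6, the inducer of the acute phase response, went from 8.27, 7.74 and 7.28 to 6.44, 6.33 and 7.17, a fall of −1.12 ± 0.22 (SE, adjusted p = 0.00156). Control Il6 lay between 8.49 and 8.94 on all 6 arrays. The rises were in chemokines. Cxcl5, which attracts neutrophils, went from 7.61, 8.96 and 8.64 to 10.12, 9.66 and 9.81, a change of 1.46 ± 0.41 (adjusted p = 0.0129), and the call was lost without 2 h replicate 2 or without 24 h replicate 1. Ccl20, which attracts lymphocytes and dendritic cells through Ccr6, went from 6.45, 6.75 and 6.94 to 7.78, 7.63 and 7.80, a rise of 1.02 ± 0.18 (adjusted p = 0.00085), and it also rose in the controls by 0.57 (adjusted p = 0.0458). Of 28 complement genes 3 fell and 3 rose (10.7% each, below the 19.6% and 11.8% of all genes). The rises numbered 0 without 2 h replicate 2, 24 h replicate 1 or 24 h replicate 2, and 6 without 2 h replicate 4. Cd59a, an inhibitor of the membrane attack complex, fell by 1.30, C6 fell by 1.09 and the regulator Cr1l fell by 0.73, and these 3 genes were lower after cyclic loess too.

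**Figure D2:**
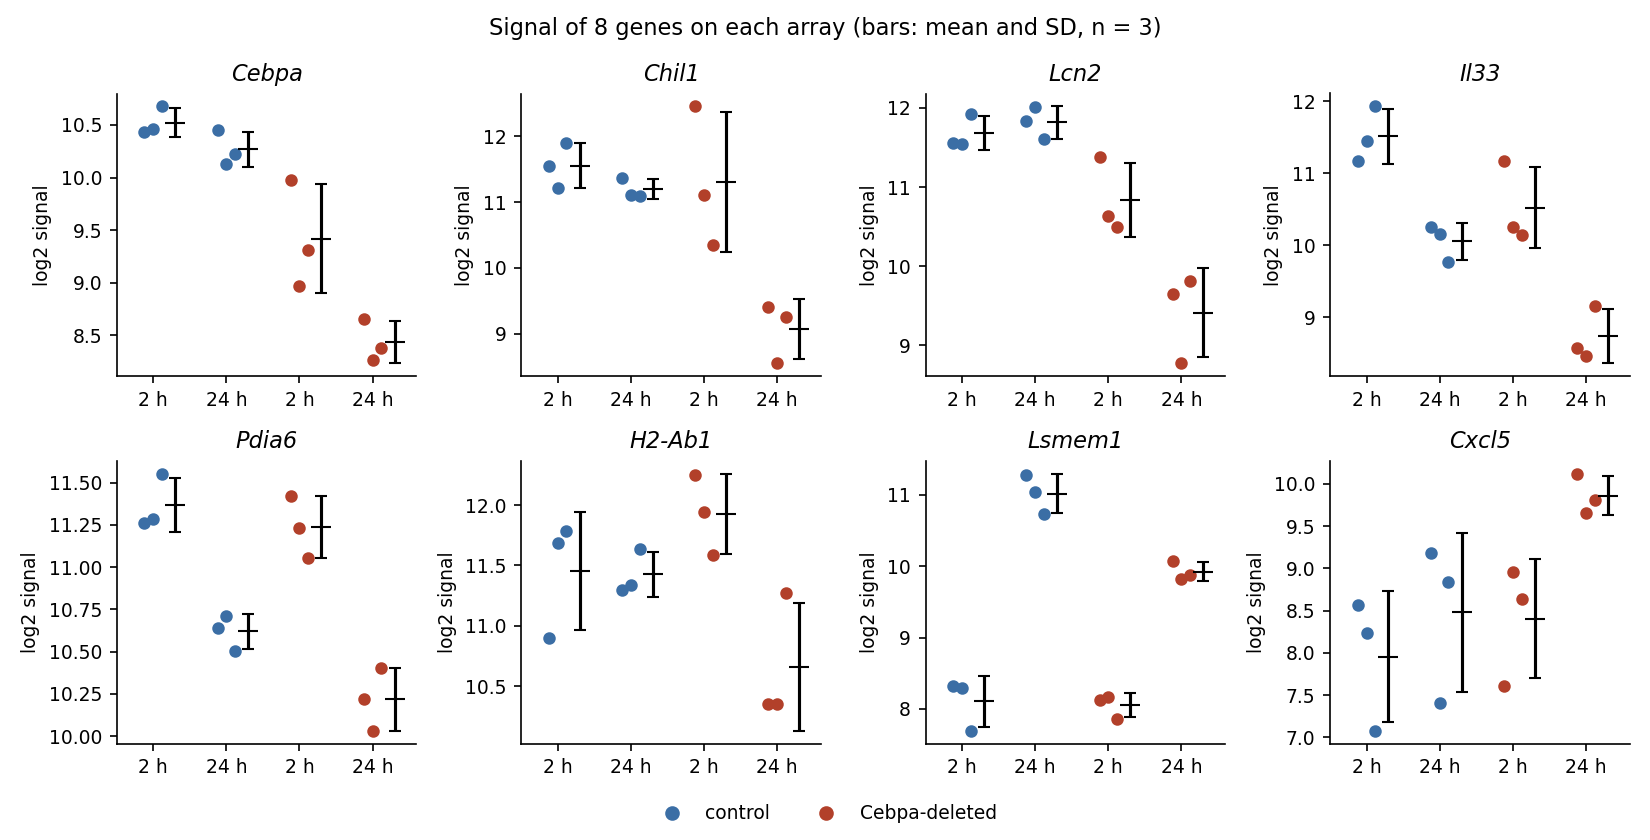
Log2 signal of 8 genes on each array, with controls and Cebpa-deleted arrays in separate colours at 2 and 24 h, and the mean and SD of each group (n = 3). Each panel has its own axis. Chil1, Lcn2 and Cebpa are lower at 24 h than at 2 h on every Cebpa-deleted array, while Lcn2 in the controls stays between 11.55 and 12.01.

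Of the 22 measured type II cell markers 20 fell (90.9%, against 19.6% of all genes). Their median change was −0.65, against 0.02 over all genes. All 22 lay in the upper 40% of genes by mean level, where 35% of the lower bin and 51.3% of the highest bin fell, with median changes of −0.20 and −0.30. After cyclic loess 15 were lower, and without 2 h replicate 2 the number was 20. With the array range as a covariate limma called 0, against 20 at an unadjusted p below 0.05 without the covariate. Napsa, the protease that trims the surfactant protein B precursor, went from 12.41, 12.12 and 11.67 to 10.87, 10.38 and 11.28, a fall of −1.22 ± 0.18 (SE, adjusted p = 0.000304). Abca3, the lipid pump of lamellar bodies, went from 11.69, 11.19 and 10.96 to 10.50, 10.15 and 10.63, a fall of −0.85 ± 0.14 (adjusted p = 0.000654). Lamp3 of the lamellar body membrane fell by 0.89 and Ctsh, another protease of surfactant processing, fell by 0.88 on the log2 scale. Among the surfactant proteins, Sftpd fell by 0.63, Sftpa1 fell by 0.50 and Sftpb fell by 0.35, and of these 3 Sftpa1 alone was called after cyclic loess. Sftpc, the defining surfactant protein of type II cells, was detected at 13.82, 13.84 and 13.71 at 2 h and 13.68, 13.69 and 13.70 at 24 h, so the labelled cell type had its defining marker at both times. These values lie at or near the top signal of each array (13.70 to 13.85), as do those of Sftpa1 at 2 h, so no change is read for Sftpc, and the fall of Sftpa1 has no exact size. In the controls, where 7.97% of all genes rose and 4.46% fell, Il33 alone of the 22 was called, and after cyclic loess 2 were lower.

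Transcription factors of the lung epithelium fell in part. Of the 20 measured, 7 fell (35%), against 19.6% of all genes. The upper 40% by mean level, where 35% and 51.3% of genes in its bins fell, held 16 of the 20. After cyclic loess the counts were 7 lower and 2 higher. Nkx2-1, the lineage factor of the lung, went from 10.38, 9.96 and 9.80 to 9.07, 8.92 and 9.48, a fall of −0.89 ± 0.14 (SE, adjusted p = 0.000431). Etv5, which FGF signals keep on in type II cells, went from 11.77, 11.33 and 10.91 to 10.34, 10.23 and 10.38, a fall of −1.02 ± 0.15 (adjusted p = 0.000257). The others that fell were Rbpjl, Elf5, Elf3, the pioneer factor Foxa1 and Grhl2, with changes from −1.05 to −0.59. Gata6, Foxa2 and Sox9 changed by −0.29, −0.25 and 0.02 and did not pass the test. Of 23 FGF receptors and feedback genes, 14 of them in the upper 40%, 7 fell (30.4%) and 2 rose (8.7%), against 19.6% and 11.8% of all genes. After cyclic loess 2 were lower and 1 higher. The feedback inhibitor Spred2 fell by 0.85 and the receptor Fgfr2 fell by 0.57, while Spred3 rose by 0.44.

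Of the 21 measured surfactant phospholipid and lamellar body genes 12 fell (57.1%), against 19.6% of all genes. The upper 40% by mean level, where 35% and 51.3% of genes in its bins fell, held 18 of the 21. After cyclic loess 8 were lower and 1 higher. Beyond the markers above, Pla2g1b, a secreted phospholipase, went from 11.04, 10.63 and 10.43 to 9.28, 9.0 and 10.09, a fall of −1.24 ± 0.21 (SE, adjusted p = 0.000701). Lpcat1, which makes the dipalmitoyl lecithin of surfactant, fell by 0.70 and Cept1, which joins choline to diacylglycerol, fell by 0.66. Pcyt1a, the rate-limiting enzyme of lecithin synthesis, changed by −0.24 and did not pass the test. Of 18 fatty acid synthesis genes, 15 of them in the upper 40%, 12 fell (66.7%), and after cyclic loess 8 were lower. Mid1ip1, an activator of acetyl-CoA carboxylase, went from 11.65, 11.25 and 10.85 to 9.93, 9.81 and 10.33, a fall of −1.23 ± 0.17 (adjusted p = 0.00024). Fads2, a fatty acid desaturase, fell by 0.97, Acly, the source of cytosolic acetyl-CoA, fell by 0.91 and Fasn, the fatty acid synthase, fell by 0.58.

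Of 22 triglyceride and lipid droplet genes 9 fell (40.9%) and 1 rose (4.55%), against 19.6% and 11.8% of all genes. The upper 40% by mean level, where 35% and 51.3% of genes in its bins fell, held 14 of the 22. After cyclic loess the counts were 4 lower and 1 higher. Without 24 h replicate 2, 5 were lower. Gpam, the first enzyme of glycerolipid synthesis, went from 10.52, 9.82 and 9.67 to 8.67, 8.62 and 8.96, a fall of −1.25 ± 0.18 (SE, adjusted p = 0.000261). Gpam and Mid1ip1 fell in the controls too (−0.75 and −0.70). Lpin2, a phosphatidate phosphatase, rose by 0.47. Of 17 cholesterol synthesis enzymes, all in the upper 40%, 5 fell (29.4%), with Nsdhl at −0.80 and Msmo1 at −0.62 first. After cyclic loess Nsdhl alone was lower. The falls in this list numbered 0 without 2 h replicate 2 and 1 without 24 h replicate 1 or 2, but 11 without 2 h replicate 4 and 12 without 24 h replicate 4. Among 15 SREBP, INSIG and LXR regulators and sterol targets, 14 of them in the upper 40%, 9 fell (60%). After cyclic loess 4 were lower and 1 higher. Without 2 h replicate 3, 24 h replicate 1 or 24 h replicate 2 there were 5 falls. Mbtps1, the protease that releases SREBP, fell by 0.77 and Srebf1, the SREBP of fatty acid synthesis, fell by 0.65. Of 22 fatty acid oxidation and PPAR genes, 18 of them in the upper 40%, 11 fell (50%) and 1 rose (4.55%). After cyclic loess the counts were 3 lower and 2 higher. The falls numbered 5 without 2 h replicate 2 and 6 without 24 h replicate 1 or 2. Slc25a20, the carnitine carrier, fell by 0.89, and the coactivator Ppargc1a rose by 0.50.

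Most listed chaperones and folding enzymes of the endoplasmic reticulum fell, as counted below their promoters. These genes are known targets of the unfolded protein response, in which ATF6 and XBP1 bind an element made of CCAAT, any 9 bases and CCACG. This motif was chosen for the search after the values of the genes had been seen. It was found on either strand in 9 of 24 listed genes with a window (37.5%), against 21 of 15614 measured genes with a window (0.134%) and 39 of all 32851 windows (0.119%). The 3 windows below hold 1 match each, in capitals, and come from RefSeq, build GRCm38.p6, written 5′ to 3′ on the strand of the gene.
Hspa5, chr2:34771840-34772139, plus strand: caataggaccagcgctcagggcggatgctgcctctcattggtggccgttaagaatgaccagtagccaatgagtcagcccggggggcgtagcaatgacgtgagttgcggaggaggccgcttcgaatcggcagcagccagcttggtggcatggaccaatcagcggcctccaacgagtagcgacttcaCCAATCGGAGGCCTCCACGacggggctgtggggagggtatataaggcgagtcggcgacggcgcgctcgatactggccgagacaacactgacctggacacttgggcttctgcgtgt
Pdia6, chr12:17266339-17266638, plus strand: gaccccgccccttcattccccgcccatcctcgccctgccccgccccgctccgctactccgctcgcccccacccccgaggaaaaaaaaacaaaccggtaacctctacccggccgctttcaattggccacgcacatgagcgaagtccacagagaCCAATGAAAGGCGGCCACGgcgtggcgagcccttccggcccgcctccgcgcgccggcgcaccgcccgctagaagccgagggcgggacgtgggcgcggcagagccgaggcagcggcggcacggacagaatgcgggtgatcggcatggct
Creld2, chr15:88819396-88819695, plus strand: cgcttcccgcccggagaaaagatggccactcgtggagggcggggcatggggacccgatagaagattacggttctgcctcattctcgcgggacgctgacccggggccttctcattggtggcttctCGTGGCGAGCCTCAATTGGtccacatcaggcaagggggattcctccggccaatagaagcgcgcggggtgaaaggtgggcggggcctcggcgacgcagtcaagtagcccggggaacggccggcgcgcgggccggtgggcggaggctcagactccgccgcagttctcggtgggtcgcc
The match begins 65, 98 and 126 bases before the gene start, in that order, and that of Creld2 lies on the opposite strand.

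Of the 28 measured genes of the unfolded protein response 22 fell (78.6%) and 2 rose (7.14%), against 19.6% and 11.8% of all genes. Their median change was −0.51. The upper 40% by mean level, where 35% and 51.3% of genes in its bins fell, held 27 of the 28. After cyclic loess 15 were lower and 2 higher, and without 2 h replicate 2 the counts were 19 lower and 2 higher. Pdia6, a disulfide isomerase, had signals of 11.42, 11.23 and 11.06 at 2 h and 10.22, 10.03 and 10.40 at 24 h. The times did not overlap, and the fall was −1.02 ± 0.12 (SE, adjusted p = 7.30e-05). Hspa5, the master chaperone BiP, went from 12.03, 12.08 and 12.04 to 11.49, 11.31 and 11.58, a fall of −0.59 ± 0.10 (adjusted p = 0.000811). Creld2, another disulfide isomerase of this compartment, went from 9.13, 9.05 and 8.81 to 8.39, 8.05 and 8.46, a fall of −0.70 ± 0.12 (adjusted p = 0.000633). Hyou1, the large chaperone that works with BiP, fell by 0.83 and the transcription factor Xbp1 fell by 0.68. Ern1, the sensor that splices the Xbp1 message, rose by 0.37 and Sec61b, a subunit of the translocon, by 0.39.

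The controls changed in the same list, with 10 members lower and 2 higher, where 4.46% and 7.97% of all genes were called. Control Pdia6 went from 11.26, 11.28 and 11.55 to 10.64, 10.71 and 10.51, and the difference of −0.27 between the changes did not pass the test (adjusted p = 0.197). The differences for Hyou1 (−0.27), Hspa5 (−0.29), Creld2 (−0.24) and Xbp1 (−0.33) did not pass it either, with adjusted p from 0.0744 to 0.267. Over the list, 8 members had a difference called below 0 and 1 above it, against 16.5% and 14.3% of all genes, and after cyclic loess the counts were 0 below and 1 above by limma, the latter being Sec61b (0.93, adjusted p = 0.011). A difference that misses the threshold does not show equal changes.

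**Figure D3:**
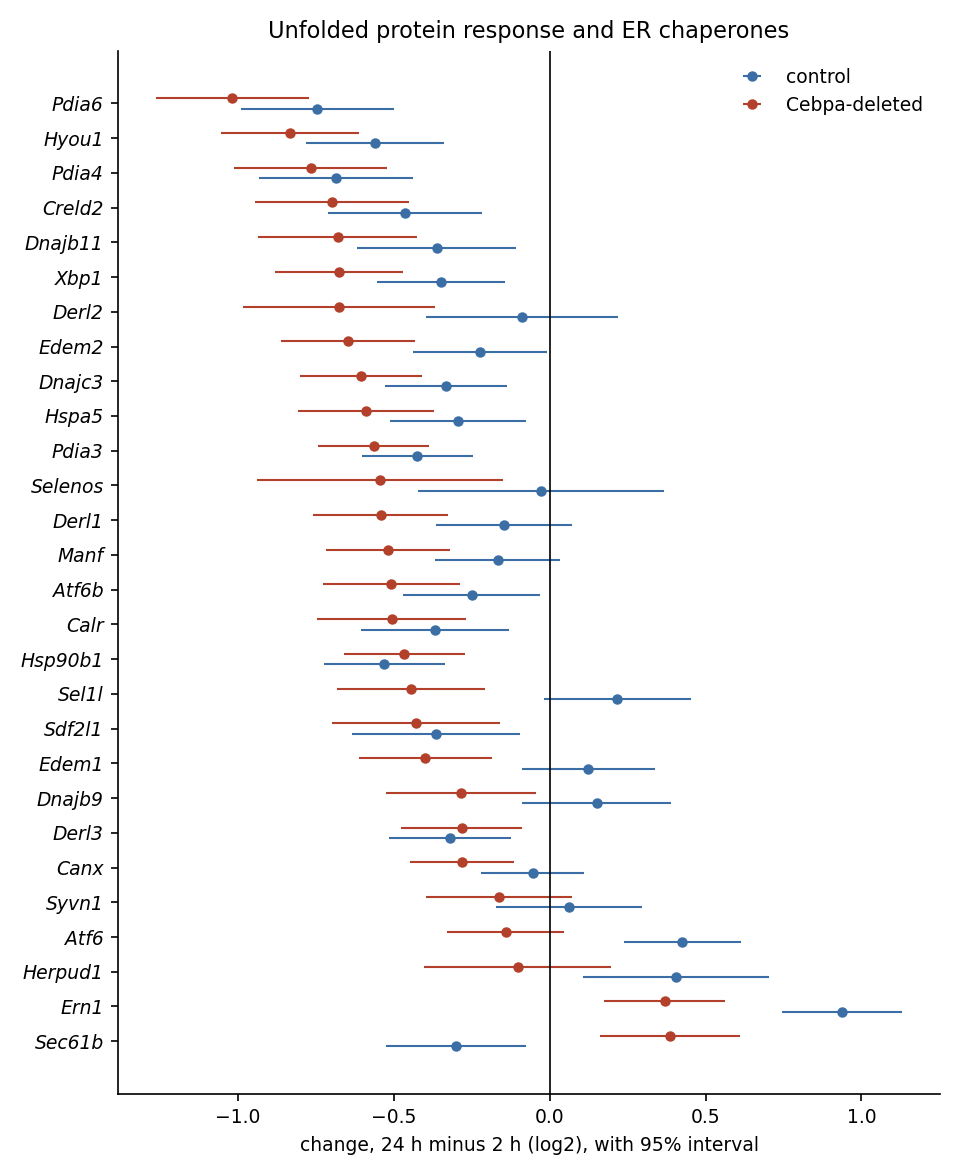
Change from 2 to 24 h (log2) with its 95% interval from the fit for the 28 measured genes of the unfolded protein response, in controls (blue) and Cebpa-deleted cells (red), sorted by the latter. Of the red points 26 lie below 0, down to Pdia6 at −1.02, and Ern1 (0.37) and Sec61b (0.39) lie above it.

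In the integrated stress response ATF4 switches on amino acid supply. Of 38 measured genes 5 rose and 5 fell (13.2% each), near or below the 11.8% and 19.6% of all genes, with a median change of −0.09, and after cyclic loess 10 were higher and 3 lower. The rises numbered 1 without 2 h replicate 2, 2 without 24 h replicate 1 and 3 without 2 h replicate 3 or 24 h replicate 2. Wars, a tRNA charging enzyme, went from 9.67, 9.81 and 9.74 to 8.70, 8.74 and 9.0, a fall of −0.93 ± 0.09 (SE, adjusted p = 2.49e-05). Ppp1r15a, which restores translation, fell by 0.70 and the stress factor Atf3 fell by 0.64. Atf5, Phgdh, which starts serine synthesis, and Nupr1 rose by 0.43, 0.43 and 0.41. In the controls, where 7.97% of all genes rose, 15 members rose and the median change was 0.31. The motif TGATGNAA, an amino acid response element, was in 11 of 32 listed genes with a window (34.4%) and in 3.62% of all measured genes with a window.

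Calls for targets of NRF2, the regulator of antioxidant genes, turned with the scaling. Of 32 measured genes 2 rose (6.25%) and 4 fell (12.5%), below the 11.8% and 19.6% of all genes. After cyclic loess 13 were higher and 0 lower by limma, with a median change of 0.27, where 8.24% and 9.57% of all genes were called. Without 2 h replicate 2 the counts were 0 higher and 2 lower, without 24 h replicate 1 or 2 they were 0 higher and 1 lower, and without 2 h replicate 3 they were 3 higher and 1 lower. Gclc, the catalytic subunit of glutathione synthesis, went from 11.93, 12.13 and 11.74 to 12.15, 12.26 and 12.29, a rise of 0.30 ± 0.11 (SE, adjusted p = 0.0416). Abcc1, an exporter of glutathione conjugates, rose by 0.45. The falls were in Tkt, Keap1, Blvrb and Taldo1, with changes from −0.41 to −0.32. Nqo1 and Hmox1, classic targets, changed by 0.13 and −0.16 and did not pass the test. In the controls, where 7.97% of all genes rose, 11 members rose, Nqo1 among them by 0.82. The motif TGACNNNGC, the antioxidant response element, was in 9 of 26 listed genes with a window (34.6%) and in 15.2% of all measured genes with a window.

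Of 23 measured enzymes that remove superoxide and peroxide 12 fell (52.2%) and 1 rose (4.35%), against 19.6% and 11.8% of all genes. The upper 40% by mean level, where 35% and 51.3% of genes in its bins fell, held 19 of the 23. After cyclic loess the counts were 7 lower and 3 higher. Prdx3, the mitochondrial peroxiredoxin, went from 10.29, 9.87 and 9.50 to 8.60, 8.56 and 9.39, a fall of −1.04 ± 0.19 (SE, adjusted p = 0.000895). Cat, the peroxisomal catalase, went from 11.69, 11.40 and 11.32 to 10.72, 10.87 and 10.94, a fall of −0.62 ± 0.10 (adjusted p = 0.000522). Mt2, a metal-binding protein, fell by 0.77 while it rose by 0.37 in the controls, and the difference of −1.14 (adjusted p = 0.00169) was called after cyclic loess as well (−0.84, adjusted p = 0.0143). Sod1, the cytosolic superoxide dismutase, rose by 0.24 (adjusted p = 0.0452). Sod2, the mitochondrial dismutase, fell by 0.27, and it was not called after cyclic loess.

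Of 28 targets of p53, the DNA damage regulator, 1 rose (3.57%) and 7 fell (25%), against 11.8% and 19.6% of all genes. The upper 40% by mean level, where 35% and 51.3% of genes in its bins fell, held 21 of the 28. After cyclic loess the counts were 2 higher and 0 lower by limma. The falls numbered 3 without 24 h replicate 2 and 4 without 2 h replicate 2 or 24 h replicate 1. Ccng1, an early target, rose from 10.27, 10.35 and 10.19 to 10.84, 10.99 and 10.76, a change of 0.59 ± 0.08 (SE, adjusted p = 0.000245), and by 0.92 in the controls. Mdm2, the p53 inhibitor, changed by −0.01 and Bbc3, a death gene, by −0.03, and neither passed the test. Of 28 BCL2 family and caspase genes, 18 of them in the upper 40%, 8 fell (28.6%), with the effector caspase Casp6 first at −0.85. After cyclic loess 5 were lower and 4 higher. Of 23 heat shock proteins, 21 of them in the upper 40%, 7 fell (30.4%), and after cyclic loess 3 were lower and 1 higher. Without 2 h replicate 2, 24 h replicate 1 or 24 h replicate 2 the falls in both of these lists numbered 4. Hspb1, a small heat shock protein, went from 9.34, 9.58 and 9.38 to 8.33, 8.12 and 8.72, a fall of −1.05 ± 0.15 (adjusted p = 0.000245).

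Respiratory chain and proteasome subunits were lower as deposited and lost most calls after cyclic loess. Of 56 respiratory chain and ATP synthase subunits 29 fell (51.8%, against 19.6% of all genes), with a median change of −0.33. After cyclic loess 5 were lower and 4 higher, where 9.57% and 8.24% of all genes were called. In this list 54 of 56 genes lay in the upper 40% by mean level, where 35% and 51.3% of genes in its bins fell. Ndufa3 and Ndufb6 of complex I fell (−0.74 and −0.71) and were lower after cyclic loess too. Of 35 proteasome subunits, all in the upper 40%, 24 fell (68.6%), with a median change of −0.35. After cyclic loess 2 were lower and 3 higher. Without 2 h replicate 2 the falls were 4 of 56 and 15 of 35, without 24 h replicate 1 they were 12 and 14, and without 24 h replicate 2 they were 6 and 14.

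**Figure D4:**
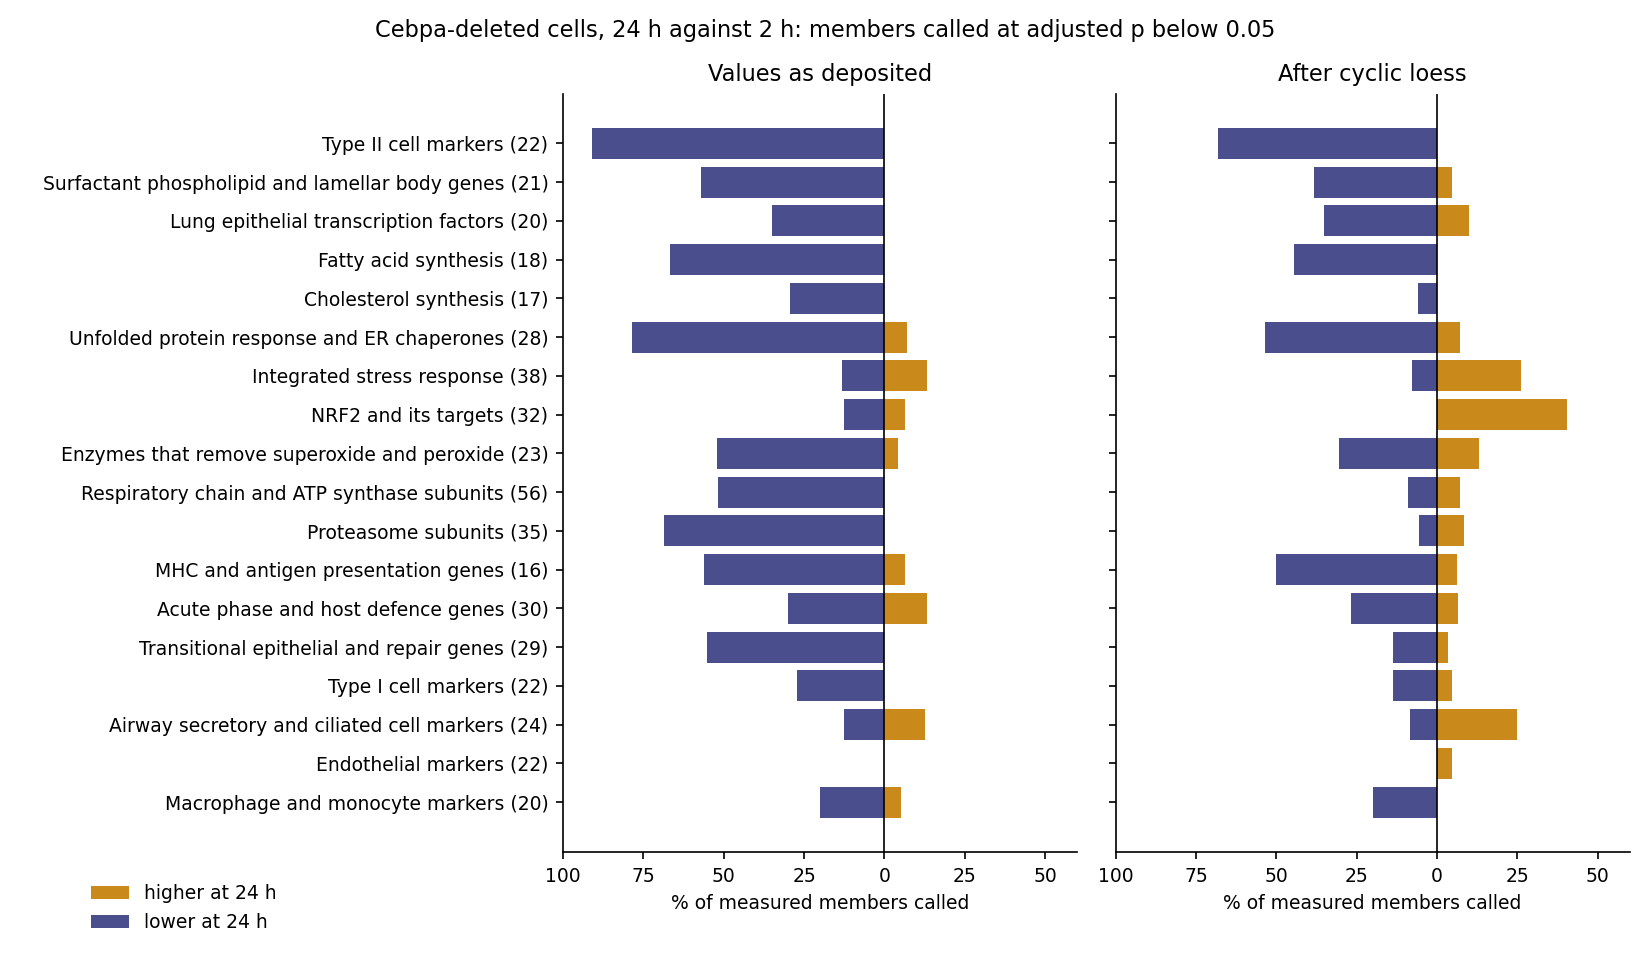
Share of the measured members of 18 gene lists called higher (orange) or lower (blue) at 24 h than at 2 h in Cebpa-deleted cells, with the number measured in brackets. The left panel uses the values as deposited and the right panel values after cyclic loess. Type II cell markers are lower in both panels (20 and 15 of 22), while NRF2 targets go from 4 lower and 2 higher to 13 higher.

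More antigen presentation genes fell than rose. Mouse type II cells are known to carry class II molecules, which show peptides to CD4+ T cells. Of 16 measured genes 9 fell (56.2%) and 1 rose (6.25%), against 19.6% and 11.8% of all genes. The upper 40% by mean level, where 35% and 51.3% of genes in its bins fell, held 13 of the 16. After cyclic loess 8 were lower and 1 higher, and without 2 h replicate 2 the counts were 7 lower and 1 higher. H2-Ab1, a class II chain, went from 12.25, 11.94 and 11.59 to 10.36, 10.36 and 11.28, a fall of −1.27 ± 0.24 (SE, adjusted p = 0.00125). H2-Eb1 and H2-Aa, 2 other class II chains, fell (−1.04 and −1.0), H2-DMa, which loads the peptide, fell by 0.93 and Cd74, the invariant chain, fell by 0.66. Ciita, the master activator of class II genes, fell by 0.44, a call that was lost after cyclic loess. Nlrc5, the activator of class I genes, has 19 features on the array, and the feature used rose by 0.76 ± 0.16 (adjusted p = 0.00245). In the controls limma called 0 members as deposited and 1, lower, after cyclic loess, against 12.4% and 13.5% of all genes. Control H2-Ab1 lay between 10.89 and 11.79 on all 6 arrays. Differences between the changes were called for 11 members as deposited, 9 below 0 and 2 above, against 16.5% and 14.3% of all genes. After cyclic loess 2 were called, against 5.95% of all genes, namely Cd74 (−0.55, adjusted p = 0.0469) and Nlrc5 (1.53, adjusted p = 0.0125). Of 24 interferon-stimulated genes 6 fell (25%, near the share over all genes). Among them were Rtp4 at −0.70 and the RNA sensors Ddx58 and Ifih1 at −0.63 and −0.61, and after cyclic loess these 3 were lower.

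Several of the genes of largest rise rose in the controls too. Lsmem1 went from 8.12, 8.17 and 7.87 to 10.07, 9.82 and 9.88, a rise of 1.87 ± 0.19 (SE, adjusted p = 4.68e-05). In the controls it went from 8.32, 8.30 and 7.69 to 11.29, 11.04 and 10.73, and the difference of −1.04 between the changes (adjusted p = 0.0133) was not called after cyclic loess (adjusted p = 0.165). Tbrg3 rose from 6.62, 6.58 and 6.58 to 7.85, 8.03 and 7.75, a change of 1.28 ± 0.13 (adjusted p = 4.68e-05), and by 1.79 in the controls. Lncpint, a long noncoding RNA that p53 is known to induce, rose by 1.09 and by 1.28 in the controls. Tas2r135, a bitter taste receptor, went from 6.01, 5.91 and 6.15 to 7.05, 7.07 and 7.12 and rose more in the controls, from 5.89, 6.0 and 5.90 to 8.43, 7.84 and 8.09. That difference of −1.12 (adjusted p = 0.00255) was called after cyclic loess as well (−1.36, adjusted p = 0.00158). Eid3, an inhibitor of transcriptional coactivators, rose by 1.20 and by 1.90 in the controls. Dnah12 and Dnah6, axonemal dynein heavy chains of motile cilia, rose by 1.28 and 1.07. Control Dnah12 rose by 1.02 (limma adjusted p = 0.0023), while the control change of 0.59 for Dnah6 did not pass the test (adjusted p = 0.0738).

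Among the falls that the controls shared, Nnat, a proteolipid of the endoplasmic reticulum, went from 8.60, 8.10 and 8.51 to 6.90, 6.97 and 6.94, a fall of −1.47 ± 0.17 (SE, adjusted p = 7.30e-05), with −1.71 in the controls. Cdh16, an epithelial cadherin, went from 9.47, 9.20 and 9.04 to 7.82, 7.56 and 8.19, a fall of −1.38 ± 0.15 (adjusted p = 5.24e-05), with −0.63 in the controls. Hdc, which makes histamine, fell by 1.44, with −1.12 in the controls. Retsat, a retinol saturase, fell by 1.59, with −0.86 in the controls. Slc15a1, a peptide carrier, fell by 1.56, while its control change of −0.42 did not pass the test (adjusted p = 0.29), and the difference of −1.14 (adjusted p = 0.0263) was not called after cyclic loess (adjusted p = 0.0971). Of the 40 genes named for the largest rises and falls, 6 kept the call in every alternative fit that tested them, namely Lsmem1, Tbrg3, Lncpint, Tas2r135, Nnat and Cdh16.

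Of the 802 genes called in both genotypes 460 changed in the same direction and 342 in opposite directions. Over all genes 31.4% were called in Cebpa-deleted cells and 12.4% in controls. The mean array range narrowed from 2.354 to 1.945 in the former and widened from 2.248 to 2.47 in the latter. Some features with opposite changes belong to miRNA genes whose mature form is the same. It is shown here with the seed (bases 2 to 8) in capitals, from RefSeq on GRCm38.p6.
Mir680-1 and Mir680-2: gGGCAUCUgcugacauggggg
Mir680-1 lies at chr6:129691541-129691561 and Mir680-2 at chrX:144297790-144297810, both on the plus strand. Mir680-1 signal was 7.63, 8.34 and 8.56 at 2 h and 9.55, 9.45 and 9.13 at 24 h, a rise of 1.20 ± 0.21 (SE, adjusted p = 0.000848), while in the controls it fell from 8.87, 8.85 and 8.59 to 7.84, 8.02 and 7.70. Mir680-2 rose by 1.18, and its control change was −1.10. Srsy, a Y-linked multicopy gene with 19 features on the array, went from 7.47, 8.08 and 8.46 to 9.41, 9.46 and 9.04, and in the controls from 9.14, 8.61 and 8.87 to 6.96, 7.66 and 6.78. Over the 6 Cebpa-deleted arrays the Srsy values run in the reverse order of the array ranges. The differences of 3.04 for Srsy, 2.11 for Mir680-1 and 2.28 for Mir680-2 were called after cyclic loess too, at 3.19, 2.40 and 2.65. Copies of Srsy share sequence, so its value is uncertain, and these features read any RNA that holds the probe sequence, not the mature miRNA alone.

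Counts in the next lists stand against 19.6% lower and 11.8% higher over all genes. In the upper 40% by mean level, 35% and 51.3% of genes in its bins fell. That range held 34 of 36 immediate early, 16 of 24 clock, 18 of 21 glucocorticoid and 28 of 32 HIF and glycolysis genes. Of 36 immediate early genes 11 fell (30.6%) and 1 rose (2.78%), and after cyclic loess 3 were lower and 2 higher. The falls numbered 5 without 24 h replicate 1 or 2, 7 without 2 h replicate 3 and 17 without 24 h replicate 4. The orphan receptor Nr4a1 and the AP-1 member Fosb fell (−0.66 each), and Egr1 rose by 0.50. Of 24 circadian clock genes 6 fell (25%) and 2 rose (8.33%), close to the shares over all genes. After cyclic loess 3 were lower and 2 higher. Nr1d1, a repressor of the clock, went from 10.55, 10.91 and 11.01 to 9.90, 9.77 and 10.14, a fall of −0.88 ± 0.16 (SE, adjusted p = 0.000849), with −0.74 in the controls, while Cry1 rose by 0.41. Of 21 glucocorticoid receptor and target genes 8 fell (38.1%) and 1 rose (4.76%), and after cyclic loess the counts were 3 lower and 1 higher. The receptor Nr3c1 fell by 0.49, and the receptor cofactor Fkbp5 changed by 0.02 and did not pass the test. Of 32 HIF and glycolysis genes 13 fell (40.6%) and 1 rose (3.12%), and after cyclic loess 4 were lower and 6 higher. Without 24 h replicate 2, 7 were lower. Pfkl, a phosphofructokinase, fell by 0.79, and Epas1, the HIF-2 subunit, rose by 0.26.

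Genes of the epithelial barrier, repair, transport and the cell cycle are given next, beside shares of 19.6% lower and 11.8% higher over all genes. In the upper 40% by mean level, 35% and 51.3% of genes in its bins fell. That range held 15 of 19 tight junction, 27 of 29 repair and 15 of 21 transport genes. It also held 20 of 27 TGF-beta and matrix, 13 of 40 cell cycle and 15 of 27 P450 list genes. Of 19 claudins and tight junction genes 8 fell (42.1%), and after cyclic loess 5 were lower and 2 higher. Cldn18, the claudin of alveolar epithelium, went from 11.84, 11.15 and 11.22 to 10.41, 10.18 and 10.85, a fall of −0.92 ± 0.16 (SE, adjusted p = 0.000873). Of 29 transitional epithelial and repair genes 16 fell (55.2%), and after cyclic loess 4 were lower and 1 higher. The keratin Krt8, a defining gene of the transitional state, changed by −0.24 and did not pass the test. Of 21 sodium, chloride and water transport genes 5 fell (23.8%, near the share over all genes), with the chloride carrier Slc26a9 at −0.78 and the sodium channel subunit Scnn1a at −0.46, and after cyclic loess 1 was lower and 3 higher. The falls numbered 1 without 24 h replicate 1 or 2, 2 without 2 h replicate 3 and 9 without 24 h replicate 4. Of 27 TGF-beta pathway and matrix genes 7 fell (25.9%, also near it), and after cyclic loess 2 were lower and 3 higher, and there were 2 falls without 2 h replicate 3 and 3 without 24 h replicate 1 or 2. Plau, the urokinase, fell by 1.04, with −0.89 in the controls. Of 40 cell cycle genes 10 fell (25%, near it too) and 1 rose, and after cyclic loess the counts were 7 lower and 1 higher. There were 3 falls without 24 h replicate 2, 4 without 24 h replicate 1 and 6 without 2 h replicate 2. The mitotic kinases Bub1 and Cdk1 fell (−0.88 and −0.39), and Mki67, the proliferation marker, changed by −0.03 and did not pass the test. Of 27 P450, flavin monooxygenase and aldehyde oxidase genes, a list that also holds paraoxonases, 7 fell (25.9%, again near it) and 1 rose, and after cyclic loess 7 were lower and 2 higher. Without 24 h replicate 1 or 2, 4 were lower. Pon1, a paraoxonase, changed by −0.86 in both genotypes.

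Markers of other cell types were present in the isolates at both times. The mean signal over 22 endothelial markers was 8.48, 9.33 and 9.44 at 2 h and 8.95, 9.05 and 9.04 at 24 h, and in the controls it lay between 7.86 and 8.61. In the limma fit 0 of these markers were called, 1 had an unadjusted p below 0.05, and after cyclic loess 1 was higher. Without 2 h replicate 2, 5 were lower. Of 20 macrophage markers 4 fell (20%), namely Chil3, Cd68, Mpeg1 and Lyz2, and 1 rose (5%), against 19.6% and 11.8% of all genes. Without 2 h replicate 2, 8 of these markers were lower. Their mean was 7.32, 7.81 and 7.82 at 2 h and 7.24, 7.40 and 7.45 at 24 h. The complement genes C1qa, C1qb and C1qc, which mark resident macrophages, changed by 0.04 to 0.07 and did not pass the test. Of 20 neutrophil markers 3 fell and 3 rose (15% each, near the shares over all genes). There was 1 fall without 2 h replicate 3, 24 h replicate 1 or 24 h replicate 2 and 1 rise without 2 h replicate 2 or 24 h replicate 1. S100a8 rose by 0.65, and the list means ran from 6.08 to 6.34 on all 6 arrays. Of 24 airway secretory and ciliated cell markers 3 fell and 3 rose (12.5% each, also near or below those shares). Scgb1a1, the Clara cell secretory protein, changed by 0.04 and did not pass the test. The airway list mean was 9.58, 10.03 and 9.93 at 2 h and 9.70, 9.63 and 9.96 at 24 h. The list means of lymphocyte markers ran from 7.32 to 8.06, of fibroblast markers from 7.09 to 7.60, of mesothelial markers from 8.06 to 8.40 and of red cell markers from 7.12 to 7.62 over the 6 arrays. After cyclic loess 4 macrophage markers were lower and 0 higher by limma, 2 neutrophil markers lower and 1 higher, and 2 airway markers lower and 6 higher. Of the lymphocyte and fibroblast lists 1 marker each was higher, and of the mesothelial and red cell lists 0 by limma. The part of these markers in the changes above was not tested.

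The change from 2 to 24 h was set against that of the controls, which share no array with the Cebpa-deleted groups. In the controls 2480 genes were called (12.4%), 1590 higher (7.97%) and 890 lower (4.46%), and after cyclic loess 2694 (13.5%), of which 8.57% of all genes were higher and 4.94% lower. Of the genes called in either genotype 802 were called in both, 460 of them in the same direction, which is 7.36% of the calls in Cebpa-deleted cells and 18.5% of those in controls. The difference between the changes was called for 6138 genes (30.8%) as deposited, 14.3% above 0 and 16.5% below, and for 1187 (5.95%) after cyclic loess, 523 above 0 (2.62%) and 664 below (3.33%). With the array range as a covariate limma called 0 differences, against 9216 genes at an unadjusted p below 0.05 in the fit without it.

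The medians of type I cell markers and cholesterol enzymes had opposite signs in the genotypes as deposited. Of 22 type I markers 9 rose in the controls, where 7.97% of all genes rose, and the list median was 0.42. In Cebpa-deleted cells 6 fell (27.3%, against 19.6% of all genes) and the median was −0.26. After cyclic loess 3 were lower and 1 higher in Cebpa-deleted cells, with a median of 0.02. Pdpn, a membrane protein of type I cells, went from 8.48, 8.48 and 8.62 to 8.43, 8.06 and 8.46 in Cebpa-deleted cells and from 8.06, 7.75 and 8.17 to 8.83, 9.61 and 9.01 in controls. The difference for Pdpn was −1.37 (adjusted p = 0.0451) as deposited and −1.06 (adjusted p = 0.204) after cyclic loess. Over the list, differences were called below 0 for 12 members as deposited and for 0 after cyclic loess by limma. Over all genes these shares were 16.5% and 3.33%. Of 17 cholesterol synthesis enzymes 8 rose in the controls with a median change of 0.54, and in Cebpa-deleted cells 5 fell (29.4%), with a median of −0.34 as deposited and −0.05 after cyclic loess. The difference was called below 0 for 11 as deposited and for 4 after cyclic loess, against the same 16.5% and 3.33% of all genes. Cyp51, a demethylase of the pathway, went from 8.83, 8.42 and 7.56 to 7.85, 7.79 and 8.79 in Cebpa-deleted cells, with overlap, and from 8.71, 8.40 and 9.12 to 9.86, 10.07 and 9.94 in controls. Its difference was −1.34 (adjusted p = 0.0183) as deposited and −0.97 (adjusted p = 0.0728) after cyclic loess.

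Some single genes differed between genotypes under both scalings. Ly96, the MD-2 partner of Toll-like receptor 4, fell from 7.08, 6.70 and 6.65 to 6.33, 6.29 and 6.32 in Cebpa-deleted cells and rose from 6.33, 6.72 and 6.29 to 7.28, 7.47 and 7.39 in controls. The difference was −1.43 (adjusted p = 0.0011) as deposited and −1.55 (adjusted p = 0.00134) after cyclic loess. Npnt, a matrix ligand of integrins, fell from 9.97, 9.67 and 9.32 to 8.67, 8.63 and 9.27 and rose in the controls from 9.15, 8.99 and 9.36 to 9.63, 10.11 and 10.15, with a difference of −1.59 as deposited and −1.21 (adjusted p = 0.0109) after cyclic loess. Tecrl went from 7.65, 6.71 and 6.42 to 5.47, 5.48 and 5.37, with control values between 4.76 and 5.98, and its difference was −1.96 as deposited and −2.31 (adjusted p = 0.00711) after cyclic loess. Ctsh fell by 0.88 against a control change of 0.26, a difference of −1.14 (adjusted p = 0.00518) as deposited and −0.85 (adjusted p = 0.0148) after cyclic loess.

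**Figure D5:**
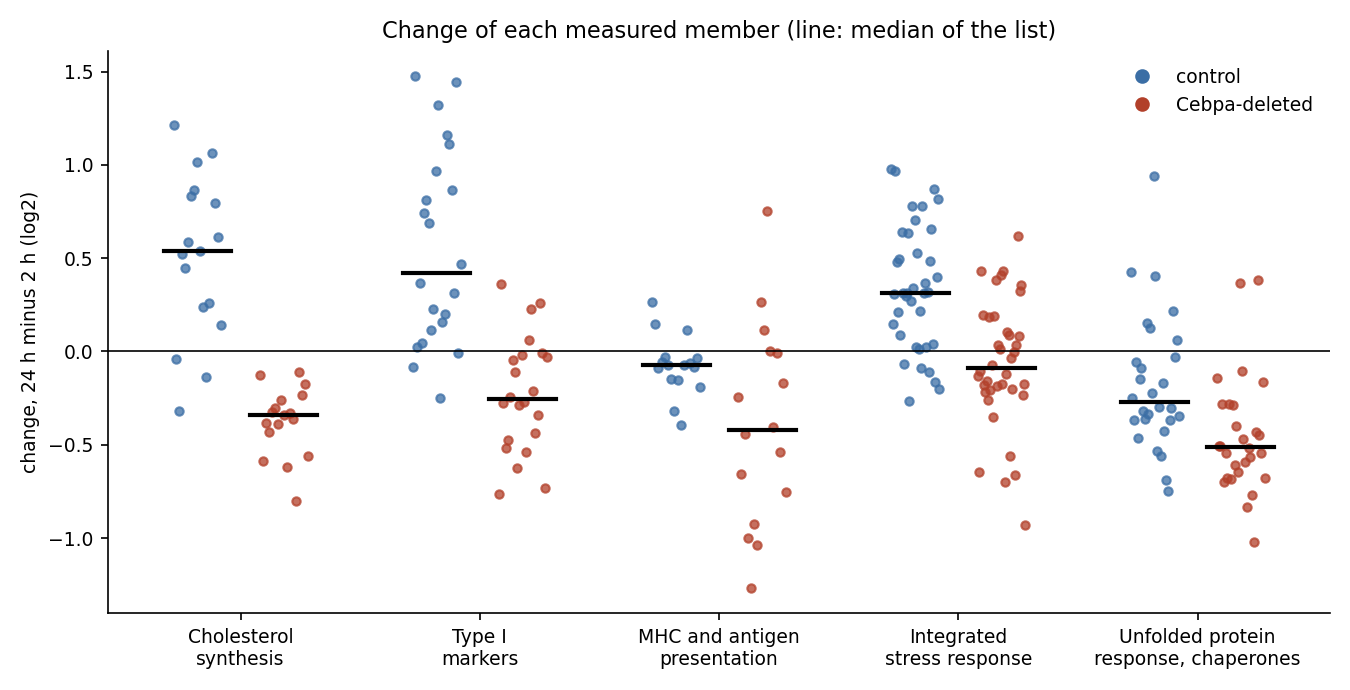
Change from 2 to 24 h (log2) of each measured member of 5 gene lists in controls (blue) and Cebpa-deleted cells (red), with a line at each list's median. The medians of cholesterol synthesis are 0.54 in controls and −0.34 in Cebpa-deleted cells, those of type I markers 0.42 and −0.26, and both genotypes lie below 0 for the unfolded protein response.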

How the data were processed

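Isolated mouse type II cells were profiled on Affymetrix arrays after guanidine extraction and biotin labelling, per the labels' protocols. The values the authors deposited are log2 signals summarised with RMA, per the submitters' processing notes. RMA's version, whether all arrays were normalized together, and the genome build are not given in the sources used here. Intensity over background is not given either, and the number of arrays limits the precision. Of 35557 features 21789 carried 1 gene symbol in the platform annotation, 1621 several and 12147 none. Each gene was represented by its feature of highest mean over the 18 arrays, which gave 19938 genes.

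Group means of 6 groups were fitted to all 18 arrays with limma 3.58.1 in R 4.3.3 (lmFit, eBayes), so that groups share an estimate of the spread. Contrasts were 24 h minus 2 h in each genotype and the difference of those changes. P-values were adjusted by the Benjamini-Hochberg method over 19938 genes and called below 0.05, two-sided. The script was tested on simulated data. Python 3.11.15 with pandas 2.3.3 and matplotlib 3.10.9 searched motifs and drew the plots.

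Named genes were Cebpa and the 20 largest rises and 20 largest falls among called genes whose arrays did not overlap. The 10 largest differences from the controls in each direction were added, among genes called for both the difference and the Cebpa-deleted change. Members of 44 gene lists were named too, chosen for their role or as the largest changes of their list. RIKEN, predicted, clone-named, olfactory and vomeronasal genes were passed over. Of 1090 distinct list members 998 were measured. The comparison and the lists were chosen with earlier results of these data known, and the endoplasmic reticulum stress motif after the values were seen. Alternatives covered normalization, the array range as a covariate, the arrays fitted, the choice of feature, a level filter, eBayes settings, a replicate block and left-out arrays. Leaving out both 24 h arrays of narrowest range was chosen after seeing the data.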

Additional observations from a re-analysis of the deposited data

Results flagged for a closer look

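The change from 2 to 24 h differed between Cebpa-deleted cells and controls for 6138 genes by limma's test of the difference of the changes, and for 1187 after cyclic loess. Differences were ranked only among genes that were also called from 2 to 24 h in Cebpa-deleted cells. Of these genes the largest differences above 0 (Cebpa-deleted minus control, log2) were Srsy at 3.04, Mir680-2 at 2.28, Krtap5-4 at 2.19, Mir680-1 at 2.11, Krtap5-2 at 2.09, Svs3a at 1.85, Ssxb10 at 1.79, Slc19a1 at 1.74, Krtap5-3 at 1.73 and St6galnac1 at 1.62. All 10 were called after cyclic loess, from 1.31 for St6galnac1 to 3.19 for Srsy. The controls fell in Krtap5-4 (−1.02), Krtap5-2 (−0.89) and Svs3a (−0.90), where the Cebpa-deleted cells rose by 1.17, 1.21 and 0.94.

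Among the same genes, called in Cebpa-deleted cells too, the largest differences below 0 were Tecrl at −1.96, Chil1 at −1.87, Pof1b at −1.81, Zfp949 at −1.78, Npnt at −1.59, Rgcc at −1.58, Cd59a at −1.57, Lcn2 at −1.56, Zfp758 at −1.47 and Ly96 at −1.43. Of these, Chil1 (−1.54, adjusted p = 0.122 by limma) and Cd59a (−1.43, adjusted p = 0.073) were not called after cyclic loess. Pof1b, an actin-binding junction protein, fell by 0.62 in Cebpa-deleted cells and rose by 1.18 in controls. Cebpa itself differed by −0.73, and its difference was not called after cyclic loess.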

How the results depend on the processing

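The reported fit called 6254 genes from 2 to 24 h in Cebpa-deleted cells. Cyclic loess called 3551 genes, of which 2546 were among the 6254. The array range as a covariate called 115, of which 91 were among them. The arrays of the compared groups alone called 1830, of which 1820 were among them, and a minimum change of 1.5-fold 1470. Leaving out replicate 2 at both times gave 1244, replicate 4 at both times 9450, and both 24 h arrays of narrowest range 64, the last chosen after seeing the data. Leaving out each array in turn gave 2922 to 8093 calls. The lowest counts were without 24 h replicate 2, 2 h replicate 2 (3111) and 24 h replicate 1 (3538). Quantile normalization gave 5221 calls with 50% higher, and the upper 60% of genes by level 5005 with 17.3% higher, against 37.7% in the reported fit. Of the genes that rose, 881 of 2355 kept the call after cyclic loess, and of those that fell, 1665 of 3899. Lists with more members lower than higher numbered 34 of 44 as deposited and 29 after cyclic loess, and those with more higher than lower went from 2 to 11. The control count of 2480 went to 744 with the 1.5-fold minimum and to between 1398 and 2143 without each array. The 6138 differences between genotypes became 2595 with quantile normalization, 1187 with cyclic loess, 4073 in the upper 60% of genes, 3222 with the 1.5-fold minimum, 0 by limma with the covariate, 807 without replicate 2 at both times, 10067 without replicate 4 at both times and 2 without both narrowest arrays. Without each array they ranged from 2563 to 8608. Cebpa in Cebpa-deleted cells was no longer called with the covariate (−0.57, limma adjusted p = 0.323) or without both narrowest arrays (−1.04, adjusted p = 0.0852), and ranged from −1.21 to −0.70 without each array. The difference for Chil1 turned to 0.22 with the covariate (adjusted p = 0.971). The range of the arrays and the time point cannot be told apart, and the cause of these shifts was not tested. With the replicate number as a block 4101 genes and 3638 differences were called. Arrays of 1 number did not deviate together (r = −0.434 and −0.574 in Cebpa-deleted arrays, −0.126 to −0.0277 in controls), so the numbers were not taken to pair the arrays.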
